A study of Mus musculus with 40 samples.

Results

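The genes described here encode 9 cathepsins: Ctsb, Ctsl, Ctss, Ctsk, Ctsf, Ctsz, Ctsc, Ctsh and Ctsd. They were taken by name from the deposited table of a mouse heart series, and all 9 were among its 11450 genes. The tissue came from adult mice of the inbred strain C57BL/6 after a permanent ligation of the left anterior descending artery, which supplies much of the left ventricle. From each of 20 mice, 1 RNA-seq library came from the injured region, where the scar forms, and 1 from the uninjured region of that heart, away from the scar, with 4 mice each at days 3, 7, 14, 21 and 42, so 40 libraries in all. The uninjured region comes from an infarcted heart, and hearts without a ligation were not analysed here. Mice of day 42 carry B labels and mice of the other days A labels, and equal labels on different days, such as A4, stand for different animals. Values are RPKM as the authors gave them, reads per length of gene and size of library, so levels can be set side by side between genes.

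Cathepsins are proteases, most of them enzymes of the acid interior of lysosomes, where they are made active by removal of a propeptide and break down proteins taken up or turned over by the cell. Most are cysteine proteases, held in check by cystatins such as the product of Cst3, while cathepsin D is an aspartic protease. Macrophages carry many of them, and some are released from cells, where cathepsins K, L and S can cut matrix proteins such as collagen and elastin.

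Ctsk and Ctss lie next to each other on chromosome 3, both on the + strand, with 17423 bases and 0 annotated genes between them (mm10, GENCODE M21). Ctsk spans bases 95499256 to 95509362 and Ctss bases 95526786 to 95556403, and both are protein-coding. The bases upstream of both genes are shown because these neighbours took different courses over the days. Those upstream of Ctsf (chromosome 19, 4855130 to 4860918, + strand) and Ctsd (chromosome 7, 142375911 to 142388038, - strand) are shown because these were the members called lower in the scar on some or all days on the deposited scale. The sequences are from RefSeq on GRCm38.p6, given 5′ to 3′ on the strand of the gene and ending before the first annotated exon. Capitals mark matches, on either strand, to CACGTG or to GAAANNGAAA. CACGTG is the core of the element through which factors of the TFEB family act on lysosome genes, and GAAANNGAAA is a form of the site of interferon regulatory factors.
Ctss, chr3:95526536-95526785: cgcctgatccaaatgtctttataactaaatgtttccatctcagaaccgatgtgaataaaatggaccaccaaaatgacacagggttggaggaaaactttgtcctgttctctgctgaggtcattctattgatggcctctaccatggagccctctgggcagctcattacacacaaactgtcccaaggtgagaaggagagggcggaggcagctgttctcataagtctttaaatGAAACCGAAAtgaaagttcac
Ctsk, chr3:95498960-95499209: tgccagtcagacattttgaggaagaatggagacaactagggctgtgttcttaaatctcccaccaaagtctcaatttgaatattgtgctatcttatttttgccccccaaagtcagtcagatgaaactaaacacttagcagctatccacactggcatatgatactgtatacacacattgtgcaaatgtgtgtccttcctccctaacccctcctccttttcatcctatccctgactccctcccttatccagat
Ctsf, chr19:4854915-4855129: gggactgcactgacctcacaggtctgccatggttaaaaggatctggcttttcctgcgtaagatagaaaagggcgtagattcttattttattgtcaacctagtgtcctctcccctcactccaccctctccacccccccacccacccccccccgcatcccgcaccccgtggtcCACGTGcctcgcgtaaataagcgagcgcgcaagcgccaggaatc
Ctsd, chr7:142388039-142388077: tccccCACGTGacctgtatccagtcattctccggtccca
Windows of 250 bases before the RefSeq start were found for 7 of the 9 genes. The Ctss window held 1 GAAANNGAAA match and no other member's window held one. CACGTG occurred 1 time in the window of Ctsf, 1 time in that of Ctsl and 2 times in that of Ctsd. The windows of Ctsf, Ctsl and Ctsd run into annotated exons, which is why 215 bases of Ctsf and 39 of Ctsd are shown. The Ctsf match and 1 Ctsd match lie in these upstream stretches, whereas the other Ctsd match and the Ctsl match lie within the annotated span of their gene and are not upstream of it. Among 32851 windows of this length in the RefSeq table, 6.02% held CACGTG and 2.98% held GAAANNGAAA. A match describes the letters only.

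For 99.9% of values the steps between RPKM values gave back a number of reads within 0.01 of a whole one, and these whole reads summed to between 10966454 and 22778788 per library. The genes most thinly covered among the members, Ctsf and Ctsk, had 111 to 1260 and 83 to 2126 of these reads in a library, and Ctsb had 6676 to 45982. Defining heart muscle genes marked the regions: the summed RPKM of 9 cardiomyocyte genes was 1422 to 3083 in injured and 28213 to 32425 in uninjured libraries at day 3, and 3839 to 6763 in injured and 25992 to 30063 in uninjured libraries at day 42. The summed RPKM of 14 macrophage genes was 1089 to 1633 in injured against 363 to 429 in uninjured libraries at day 3. It was 1717 to 2690 against 352 to 378 at day 7, 762 to 1100 against 290 to 392 at day 14, 714 to 1086 against 387 to 460 at day 21, and 722 to 901 in injured against 292 to 419 in uninjured libraries at day 42. Of these 14 genes, 14, 13, 14, 14 and 14 were called higher in the scar at days 3, 7, 14, 21 and 42, while 9 of 9 cardiomyocyte genes were lower. Fibroblast genes were higher for 9 of 11 and lower for 1 at day 3, and higher for 11 of 11 later. Endothelial genes were lower for 2 and higher for 2 of 7 at day 3 and lower for 6 of 7 later. Over all genes tested, 40.5 to 44.1% were called higher and 38.7 to 41% lower by day. Under other scalings of the libraries, described below, the endothelial counts of day 3 changed. Rescaling to the total of whole reads gave 5 higher and 2 lower, and quantile normalization gave 4 higher and 2 lower. None of 8 lymphocyte genes was a row of the table. In bulk tissue, fewer cells of a type and less RNA per cell cannot be told apart. The part of macrophage content in the values below was not tested.

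**Figure D1:**
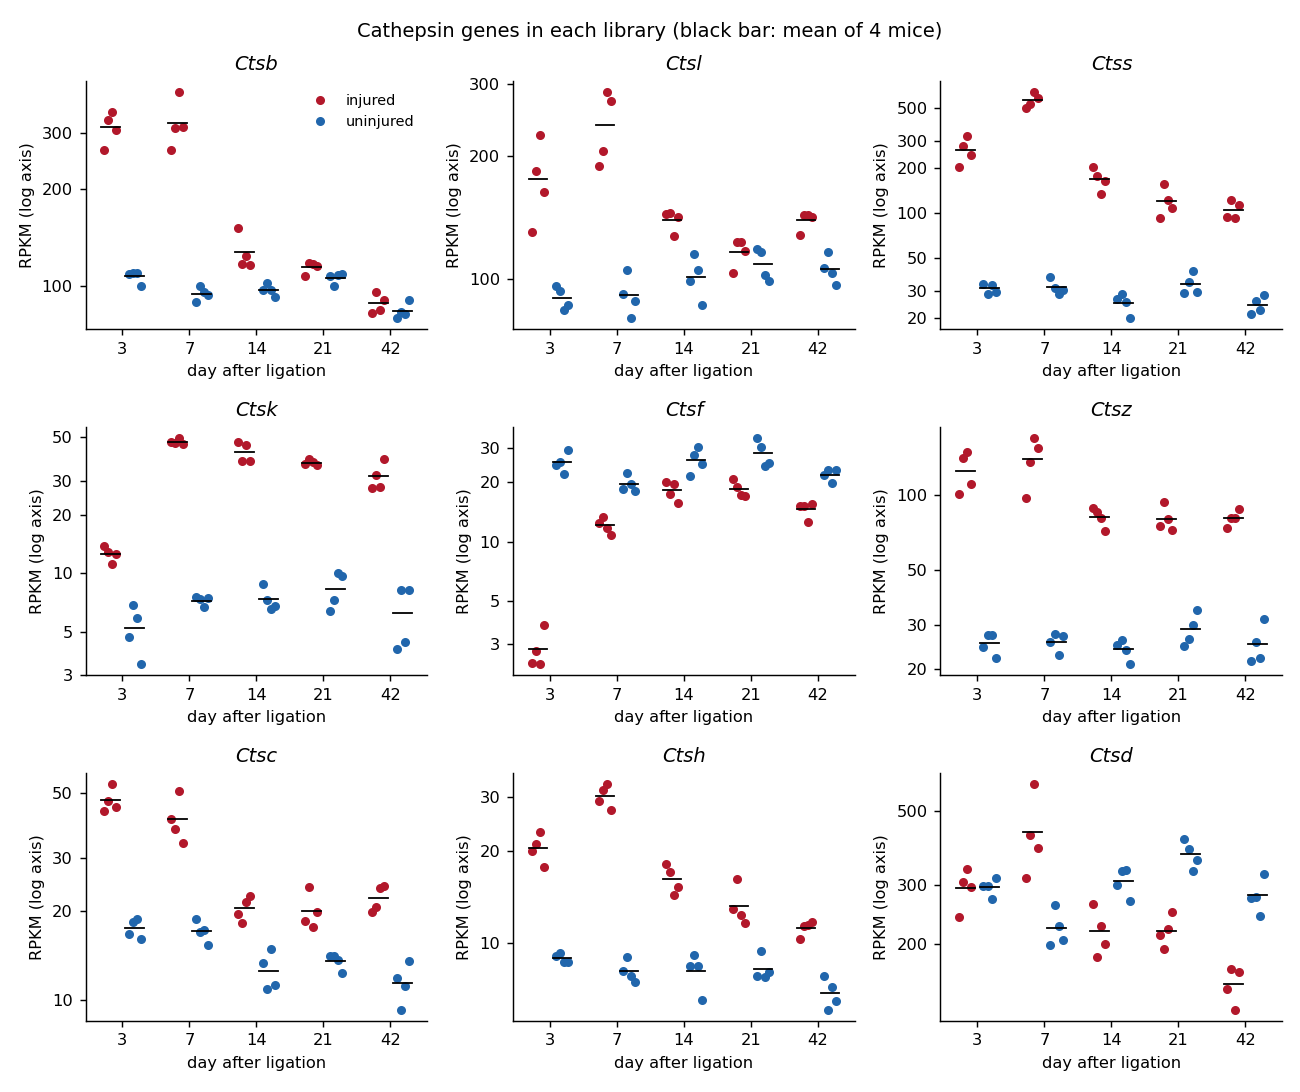
RPKM of the 9 cathepsin genes in each of the 40 libraries (log axis) by day after ligation, injured region left of uninjured region, with a black bar at the mean of 4 mice. Injured Ctss libraries lie between 503 and 636 RPKM at day 7, above the uninjured range of 28.6 to 37.5, while injured Ctsf libraries lie between 2.39 and 3.76 at day 3, below the uninjured range of 22.1 to 29.3.

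Cathepsin messages were mostly more abundant in the scar than in the remote region. Regions were compared in limma on log2(RPKM + 1) with the mouse as a block, over 11390 genes, and a gene was called at a Benjamini-Hochberg adjusted p under 0.05. At day 3, 7 of 9 members were called higher in the injured region, beside 44.1% of all genes tested, and 1 member was lower, beside 39.6%. At day 7, 8 were higher (all genes 43.6%) and 1 was lower (38.7%). At day 14, 7 were higher (42.4%) and 2 lower (40.5%), at day 21, 5 were higher (43.1%) and 2 lower (41%), and at day 42, 6 were higher (40.5%) and 2 lower (38.7%). Ctss, Ctsk, Ctsz, Ctsc and Ctsh were higher and Ctsf was lower on each of the 5 days. Ctsd changed direction between days, and Ctsb and Ctsl were called on some days only. The median log2 difference over the 9 genes was 1.16, 1.74, 0.66, 0.53 and 0.64 at days 3, 7, 14, 21 and 42, against 0.03 to 0.06 over all genes tested. For 9 of 9 members the gap between injured and uninjured libraries varied with the day (limma F test of the interaction), as it did for 74.3% of all genes.

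How libraries are scaled to each other touches these counts. The total of the whole reads worked back, over the library size that the deposited RPKM imply, had a median of 1.02 in injured and 1.35 in uninjured libraries, relative to 1 library. Rescaling to the total of whole reads moves the median difference of all genes to 0.47, 0.26, 0.36, 0.39 and 0.37 on the log2 scale at days 3, 7, 14, 21 and 42. It also raises the share of higher calls among all calls to 71.7%, 64.1%, 68.8%, 69.3% and 71.8%, against 52.7%, 53.0%, 51.2%, 51.3% and 51.1% as deposited. Directions of Ctss, Ctsk, Ctsz, Ctsc and Ctsh held under this rescaling and under quantile normalization. Those of Ctsd did not at days 3, 14, 21 and 42, and the Ctsf calls of days 14, 21 and 42 did not all hold, as given beside those genes. Ctsb at days 21 and 42 and Ctsl at day 21 were not called as deposited but were called higher under both other scalings.

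**Figure D2:**
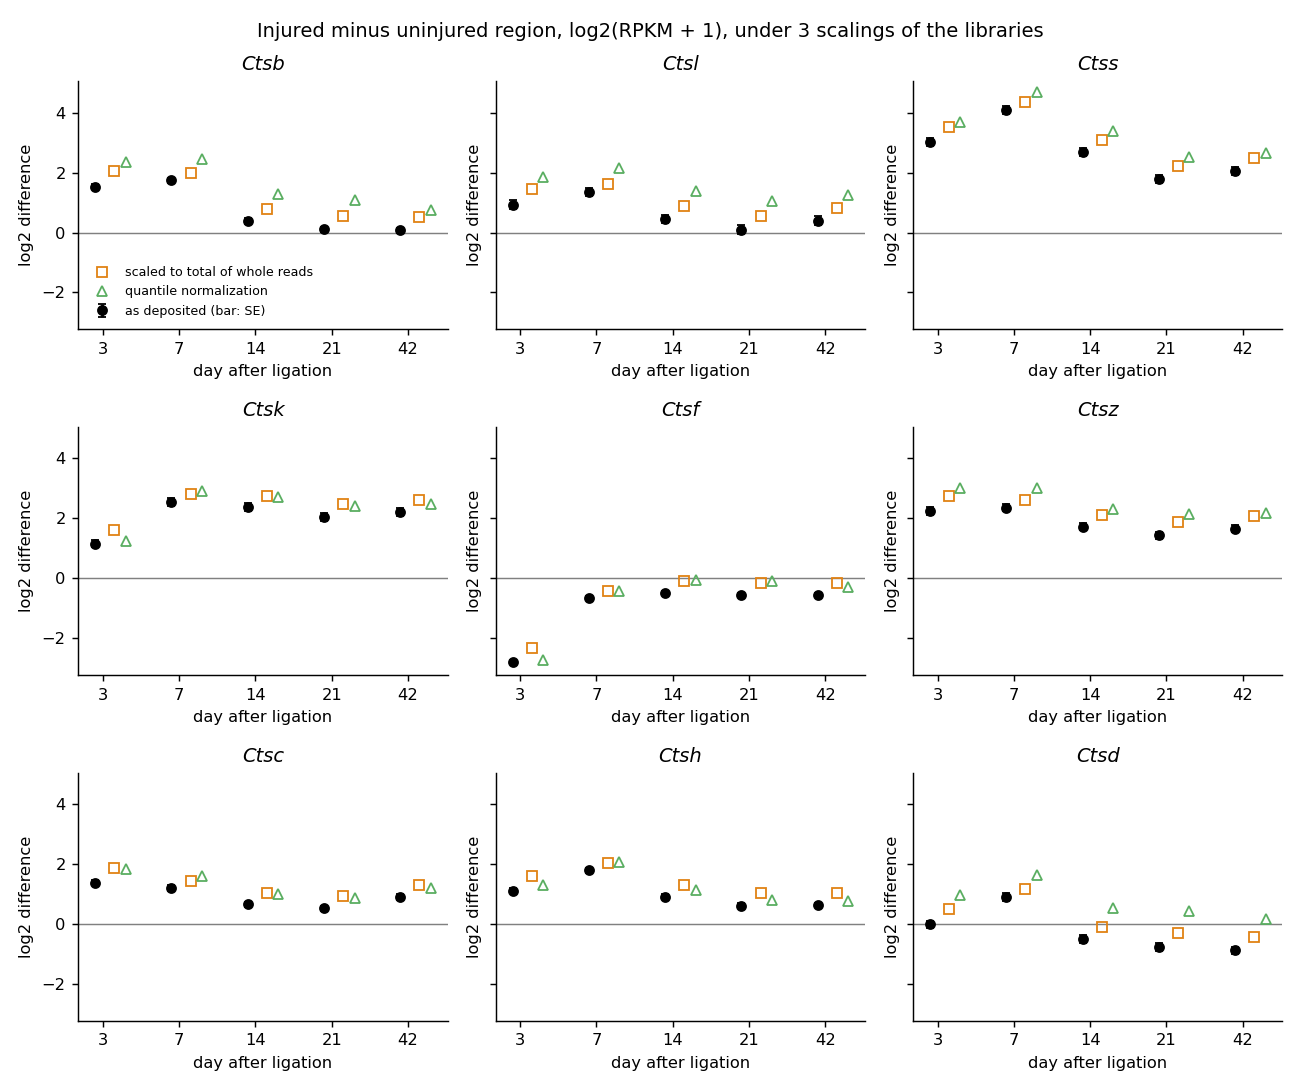
Difference between the injured and uninjured regions on the log2(RPKM + 1) scale (vertical axis, with standard error for the deposited scaling) by day after ligation for each gene, under the deposited scaling, rescaling to the total of whole reads, and quantile normalization. Ctsd at day 14 lies at -0.50 as deposited, -0.09 rescaled and 0.55 after quantile normalization, while Ctss at day 7 lies at 4.10 as deposited.

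Among the cysteine endopeptidases, Ctss had the largest excess in the scar at days 3, 7 and 14, and Ctsf was the one that was lower there on the deposited scale. Cathepsin S trims the invariant chain of class II antigen presentation in antigen-presenting cells and remains active at neutral pH. At day 3, Ctss stood at 201, 281, 326 and 242 RPKM in the injured libraries of mice A4, A5, A7 and A8, against 33.6, 28.9, 33.0 and 29.6 RPKM in their uninjured libraries. At day 7 it stood at 503, 530, 636 and 587 RPKM in the injured libraries of mice A7, A9, A10 and A12, against 37.5, 31.5, 28.6 and 30.5 RPKM in the uninjured ones. Every injured library lay far above every uninjured one on both days, and each day 7 injured library lay above each day 3 injured library. The ratio of the means was 8.39 at day 3 and 17.6 at day 7, and the log2 differences were 3.01 ± 0.13 and 4.10 ± 0.13 (SE, n = 4 mice, limma adjusted p = 5.94e-15 and 2.15e-16). Later means were 169 ± 28.3 in injured and 25.2 ± 3.69 in uninjured libraries at day 14, 119 ± 26.9 and 33.5 ± 5.51 at day 21, and 105 ± 14.7 in injured and 24.3 ± 3.27 RPKM in uninjured libraries at day 42 (SD, n = 4 each). The regions still did not overlap, with log2 differences of 2.69, 1.79 and 2.06 ± 0.13 (limma adjusted p at most 3.24e-11).

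Ctsk, the neighbour of Ctss, was higher in the scar than in the remote region on each day, and its scar level at day 42 was above that of day 3. Cathepsin K is the main collagenase of osteoclasts and can cut the triple helix of collagen. Its injured libraries held 13.8, 12.9, 11.1 and 12.6 RPKM at day 3 (mice A4, A5, A7 and A8), against 4.71, 6.84, 5.88 and 3.42 RPKM in the uninjured libraries. At day 7 they held 47.4, 46.7, 49.6 and 46.3 RPKM (mice A7, A9, A10 and A12), against 7.54, 7.33, 6.66 and 7.41 RPKM. All injured values exceeded all uninjured ones, and the 4 injured libraries of day 7 were close to one another. By day 42 the injured libraries of mice B1, B3, B9 and B12 were at 27.6, 32.0, 27.9 and 38.9 RPKM and the uninjured ones at 4.06, 8.22, 4.40 and 8.16 RPKM. Over the 5 days the log2 differences were 1.16, 2.56, 2.37, 2.05 and 2.22, each ± 0.13 (SE, limma adjusted p at most 2.39e-08). Of 9 osteoclast-type genes listed, Dcstamp, Ocstamp, Calcr and Oscar were not rows of the table, and the other 5, which include Acp5 and Mmp9, summed to 31.7 to 50.1 RPKM in injured and 4.24 to 5.3 in uninjured libraries at day 3. At day 42 their sum was 11 to 13.2 in injured and 3.07 to 4.32 RPKM in uninjured libraries, so it was lower at day 42 than at day 3 in the injured region while Ctsk was higher. The summed RPKM of 11 fibroblast genes in injured libraries was 1615 to 2128 at day 3, 5086 to 5863 at day 7 and 2403 to 2703 at day 42, against 563 to 754, 661 to 862 and 503 to 723 in uninjured libraries. Genes of this list differed in course: over these days injured Col1a1 averaged 512, 1019 and 104 RPKM, and Dcn 152, 555 and 1261. Dcn was lower in the scar at day 3 (log2 difference -1.17). The median log2 region difference of the 11 genes was 0.66, 1.83 and 2.10. The part of fibroblasts or osteoclast-type cells in the Ctsk values was not tested.

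Ctsb was higher in the scar at days 3, 7 and 14, and its difference was not called at days 21 and 42 on the deposited scale. Cathepsin B is both an endopeptidase and a peptidyl-dipeptidase. In injured libraries it averaged 312 ± 35.8 RPKM at day 3 and 323 ± 57.4 at day 7, against 107 ± 4.65 and 94.6 ± 4.59 RPKM in uninjured libraries (SD, n = 4 each). The regions were well separated, with log2 differences of 1.53 ± 0.09 and 1.74 ± 0.09 (SE, limma adjusted p = 1.37e-12 and 1.6e-13). At day 14 the means were 127 ± 17.1 and 97 ± 3.92 RPKM, a log2 difference of 0.38 ± 0.09 (limma adjusted p = 0.000668). Injured libraries at day 21 held 107, 118, 117 and 115 RPKM (mice A3, A4, A10 and A11), against 107, 99.7, 108 and 109 RPKM in uninjured libraries. At day 42 they held 82.3, 95.5, 84.2 and 90.5 RPKM (mice B1, B3, B9 and B12), against 79.4, 82.6, 81.9 and 90.5 RPKM. The ranges of the regions overlapped on both days, and the log2 differences of 0.11 ± 0.09 and 0.07 ± 0.09 were not called (limma adjusted p = 0.287 and 0.459). After rescaling to the total of whole reads they were 0.56 and 0.51 and were called higher. After quantile normalization they were 1.07 and 0.75, also called higher.

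Ctsl was called higher in the scar at days 3, 7, 14 and 42. Cathepsin L is an endopeptidase with a broad range of substrates, collagen and elastin among them. Its means were 176 ± 40.4 RPKM in injured and 89.9 ± 5.69 in uninjured libraries at day 3, and 239 ± 48.5 and 91.2 ± 10.4 RPKM at day 7 (SD, n = 4 each). The log2 differences were 0.93 and 1.36 ± 0.14 on these days and 0.46 ± 0.14 at day 14 (limma adjusted p = 3.12e-06, 1.23e-08 and 0.00482). At day 21 injured libraries held 103, 123, 123 and 117 RPKM (mice A3, A4, A10 and A11), and uninjured libraries 118, 116, 102 and 98.8 RPKM. These ranges overlapped, the injured library was higher in 3 of 4 mice, and the difference of 0.10 ± 0.14 was not called (limma adjusted p = 0.518). The day 21 difference was 0.55 after rescaling to the total of whole reads and 1.06 after quantile normalization, called higher in both. By day 42 the regions were apart again, with 128, 143, 143 and 142 RPKM in injured libraries (mice B1, B3, B9 and B12) and 106, 116, 103 and 96.4 RPKM in uninjured ones, a log2 difference of 0.40 ± 0.14 (limma adjusted p = 0.0141). That call was lost without mouse B9 (0.37, limma adjusted p = 0.0503) or mouse B12 (0.35, limma adjusted p = 0.0628).

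Ctsf was the member whose scar level was lowest early on. Cathepsin F is a cysteine endopeptidase that can also process the invariant chain in macrophages. At day 3 its injured libraries held 2.42, 2.77, 2.39 and 3.76 RPKM (mice A4, A5, A7 and A8), against 24.4, 25.5, 22.1 and 29.3 RPKM in uninjured libraries. At day 7 the values were 12.5, 13.4, 11.7 and 10.8 RPKM in injured libraries (mice A7, A9, A10 and A12), against 18.5, 22.4, 19.7 and 18.0 RPKM in uninjured ones. Injured and uninjured libraries did not overlap on either day, and the scar level at day 3 was 0.112 of the uninjured mean. The log2 differences were -2.78 ± 0.07 at day 3 and -0.65 ± 0.07 at day 7 (SE, limma adjusted p = 2.87e-17 and 3.82e-08), and both calls held under rescaling (-2.33 and -0.42). At days 14, 21 and 42 Ctsf averaged 18.2 ± 1.96, 18.5 ± 1.7 and 14.6 ± 1.37 RPKM in injured and 26.1 ± 3.82, 28.2 ± 4.51 and 21.9 ± 1.55 RPKM in uninjured libraries. The injured library was lower in all 4 mice on each of these days, and the log2 differences were -0.49, -0.57 and -0.56 ± 0.07 (limma adjusted p at most 2.54e-06). They shrank to -0.09, -0.14 and -0.14 and were no longer called after rescaling to the total of whole reads.

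The exopeptidases Ctsz, Ctsc and Ctsh were higher in the scar on each of the 5 days. Cathepsin Z is a carboxypeptidase. Ctsz averaged 125 ± 23 RPKM in injured against 25.3 ± 2.59 in uninjured libraries at day 3, 139 ± 31.1 against 25.8 ± 2.2 at day 7, and 80.6 ± 5.84 against 25.3 ± 4.68 RPKM at day 42 (SD, n = 4 each). Its injured mean was nearly level at days 14, 21 and 42 (81.6, 80.2 and 80.6 RPKM), and the log2 differences over the 5 days were 2.25, 2.36, 1.72, 1.44 and 1.65 ± 0.12 (limma adjusted p at most 2.99e-10). Cathepsin C is the dipeptidyl peptidase that activates the serine proteases of neutrophils. For Ctsc the means were 47.1 ± 4.46 in injured against 17.5 ± 1.31 RPKM in uninjured libraries at day 3, 20 ± 2.85 against 13.5 ± 0.834 at day 21, and 22.1 ± 2.22 against 11.4 ± 1.74 RPKM at day 42. Its log2 differences were 1.38, 1.20, 0.66, 0.53 and 0.90 ± 0.09 (limma adjusted p at most 1.04e-05), so the gap was smallest at day 21. The neutrophil genes Ly6g, Mpo, Elane and Retnlg were not rows of the table, and the other 4 of the list summed to 28.1 to 74.2 RPKM in injured and 2.41 to 11.5 in uninjured libraries at day 3, and to 1.93 to 2.89 and 1.01 to 3.09 RPKM at day 42. Of these 4 genes, 4 were called higher in the scar at day 3 and 1 at day 42, Csf3r, the receptor of a growth factor of neutrophils, at 1.39 ± 0.0946 in injured and 0.295 ± 0.0677 RPKM in uninjured libraries (limma adjusted p = 2.52e-06). The part of neutrophils in the Ctsc values was not tested. Cathepsin H is mainly an aminopeptidase. Ctsh averaged 20.4 ± 2.23 RPKM in injured against 8.89 ± 0.304 in uninjured libraries at day 3, 30.3 ± 2.65 against 8.07 ± 0.671 at day 7 and 11.2 ± 0.615 against 6.86 ± 0.78 RPKM at day 42, with log2 differences of 1.11, 1.79, 0.92, 0.62 and 0.64 ± 0.08 over the 5 days (limma adjusted p at most 2.27e-07).

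Ctsd, the aspartic protease, was higher in the scar at day 7 and lower there from day 14 on, on the deposited scale. Cathepsin D is an abundant lysosomal endopeptidase present in nearly all cells. At day 3, injured libraries held 242, 308, 335 and 297 RPKM (mice A4, A5, A7 and A8), against 299, 298, 274 and 316 RPKM in uninjured ones. These ranges overlapped, the injured library was higher in 2 of 4 mice, and the log2 difference was -0.01 ± 0.13 (limma adjusted p = 0.929), but 0.51 after rescaling to the total of whole reads and 0.98 after quantile normalization, both called. At day 7 they held 315, 423, 602 and 388 RPKM (mice A7, A9, A10 and A12), against 199, 262, 227 and 206 RPKM, a log2 difference of 0.91 ± 0.13 (limma adjusted p = 1.51e-06) that held its call under each scaling. From day 14 the order of the regions was the other way round. Injured and uninjured means were 219 ± 34.9 and 309 ± 29.9 RPKM at day 14, 220 ± 23.4 and 372 ± 34.9 RPKM at day 21, and 152 ± 19.1 and 280 ± 33.6 RPKM at day 42. The injured library was lower in 4 of 4 mice on each of these days, with log2 differences of -0.50, -0.76 and -0.88 ± 0.13 (limma adjusted p = 0.00138, 1.78e-05 and 3.05e-06). After rescaling to the total of whole reads they were -0.09, which was not called, -0.30 and -0.44, and after quantile normalization they were 0.55, 0.44 and 0.16, the opposite direction. Which region held more Ctsd after day 7 therefore depends on the scaling.

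The make-up of the cathepsin messages differed between the regions. The summed RPKM of the 9 genes averaged 1255 ± 194 in injured and 607 ± 16.3 in uninjured libraries at day 3, 1827 ± 310 against 519 ± 42 at day 7, and 644 ± 51.6 against 565 ± 45.6 at day 42 (SD, n = 4 each). In injured libraries the most abundant member was Ctsb at day 3 and Ctss at day 7, each in 4 of 4 mice, and Ctsd at days 14 and 21 in 4 of 4 and at day 42 in 3 of 4. In uninjured libraries it was Ctsd in every mouse. The mean share of Ctsd in the sum was 23.4 to 29.9% by day in injured and 43 to 52.5% in uninjured libraries. Ctss made up 31.1% of the sum in injured and 6.2% in uninjured libraries at day 7, and 16.2% and 4.3% at day 42. A single factor per library leaves these shares as they are, while quantile normalization moves them, to 22.7 to 31.3% in injured and 40.8 to 47.7% in uninjured libraries for Ctsd and to 30.9% and 6.62% for Ctss at day 7. Levels that stood next to each other in an order often overlapped: at day 7 the injured ranges of Ctss (503 to 636), Ctsd (315 to 602) and Ctsb (265 to 402 RPKM) each overlapped the next, whereas Ctsl, Ctsz and Ctsk followed without overlap between Ctsl and Ctsz or between Ctsz and Ctsk. At day 3 the least abundant member of the scar was Ctsf, at 2.83 ± 0.639 RPKM, below Ctsk at 12.6 ± 1.12 with no overlap, while in the uninjured region Ctsk had the lowest mean on days 3, 7, 14 and 42 and Ctsh at day 21. The uninjured ranges of Ctsk and Ctsh were apart at day 3 and overlapped on the other 4 days.

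**Figure D3:**
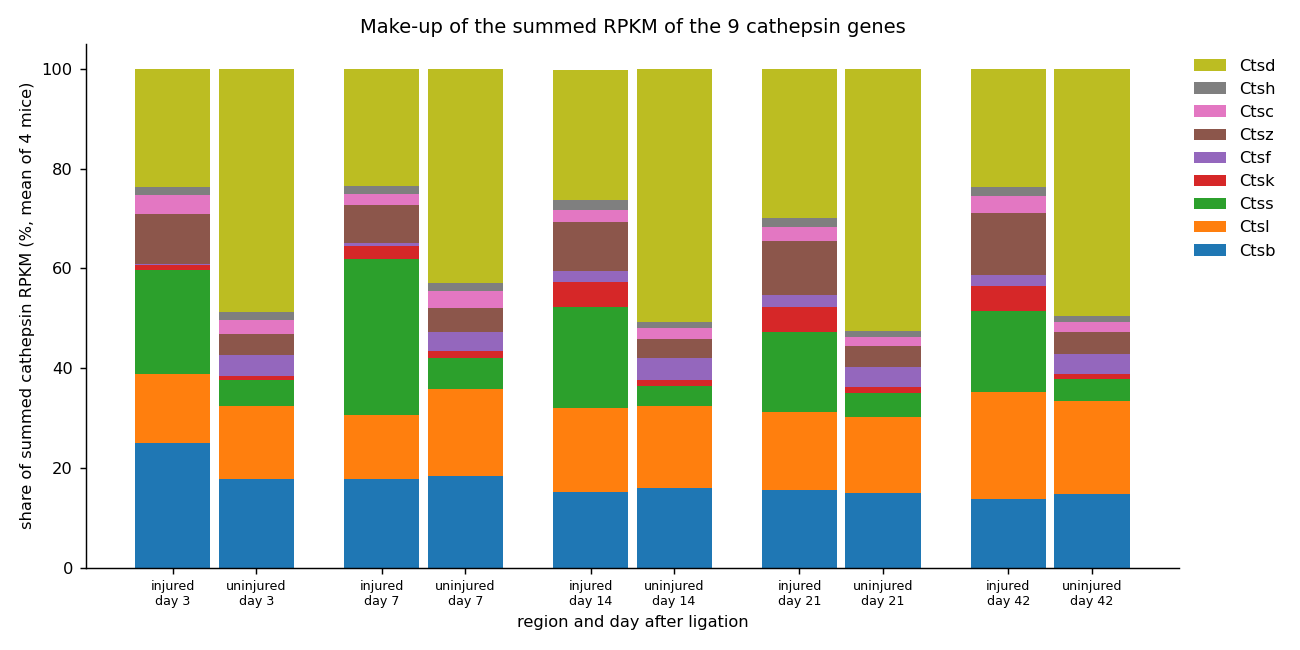
Share of each gene in the summed RPKM of the 9 cathepsin genes (percent, mean of 4 mice, bars from 0) by day, injured region left of uninjured region. Ctsd takes 23.6% in injured and 48.8% in uninjured libraries at day 3, and Ctss takes 31.1% in injured and 6.2% in uninjured libraries at day 7.

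Within the scar, most members fell between days 7 and 14. Days were compared in limma within the 20 injured libraries, and 9 of 9 members changed over the 5 days, as did 87.6% of all genes. At day 7 relative to day 3, 6 members were higher (27.7% of all genes) and 0 were lower (32.7%). The risers were Ctsk (log2 change 1.84 ± 0.10), Ctsf (1.78 ± 0.10), Ctss (1.12 ± 0.17), Ctsh (0.55 ± 0.10), Ctsd (0.51 ± 0.17) and Ctsl (0.45 ± 0.15, limma adjusted p from 3.46e-11 to 0.014). At an unadjusted p under 0.05 limma gave these 6 as well, and limma-voom on the whole reads called 7, with Ctsc lower (-0.31, limma-voom adjusted p = 0.034). Without mouse A10 of day 7 the calls of Ctsd (0.34) and Ctsl (0.35) were lost and Ctsc was called lower (-0.32), and that of Ctsl was also lost without mouse A4 of day 3 (0.31) and in a fit of the libraries of these days only (0.45, limma adjusted p = 0.074).

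At day 14 relative to day 7, 7 members were lower (21.2% of all genes) and 1 was higher (21.9%). Ctss fell by 1.75 ± 0.17, Ctsb by 1.33 ± 0.12, Ctsc by 0.96 ± 0.12, Ctsd by 0.95 ± 0.17, Ctsh by 0.87 ± 0.10, Ctsl by 0.75 ± 0.15 and Ctsz by 0.73 ± 0.15 on the log2 scale (SE, limma adjusted p from 4.82e-07 to 0.000691). Ctsf alone was called higher (0.55 ± 0.10, limma adjusted p = 0.000364), and for Ctsk the change was -0.18 ± 0.10 (limma adjusted p = 0.158). Ctsk thus averaged 42.2 ± 5.1 RPKM at day 14 and 47.5 ± 1.44 at day 7, while Ctss averaged 169 ± 28.3 at day 14 and 564 ± 59.4 RPKM at day 7. No call of this step was lost when any 1 mouse was left out, nor under rescaling to the total of whole reads or quantile normalization.

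Between days 14 and 21, 0 members and 0% of all genes, higher or lower, were called by limma, with 2 members at an unadjusted p under 0.05 and 0 called by limma-voom. At day 42 relative to day 21, 3 members were lower (13.6% of all genes) and 0 higher (11.2%): Ctsd (-0.53 ± 0.17), Ctsb (-0.37 ± 0.12) and Ctsf (-0.32 ± 0.10, limma adjusted p = 0.0277, 0.0318 and 0.0301). At an unadjusted p under 0.05 there were 5 members and limma-voom called 3. Each of these 3 calls was lost without single mice: Ctsd without A10 or A11 of day 21 or B1 or B9 of day 42 (adjusted p up to 0.0903), Ctsb without A4, A10 or A11 of day 21 or B1 or B9 of day 42 (up to 0.0823), and Ctsf without A3 or A4 of day 21 or B9 of day 42 (limma adjusted p up to 0.106). Day and label series cannot be told apart in this step, since all day 42 mice carry B labels. The same holds below for each comparison of day 42 with another day, in either region.

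Over the whole span the scar ended with less of most cathepsins and more of Ctsf and Ctsk. At day 42 relative to day 3, 6 members were lower (36.2% of all genes) and 2 higher (35.5%). The log2 change was 2.03 ± 0.10 for Ctsf and 1.25 ± 0.10 for Ctsk (limma adjusted p = 4.79e-12 and 1.43e-09). Ctsb fell by 1.81 ± 0.12, Ctss by 1.30 ± 0.17, Ctsc by 1.06 ± 0.12, Ctsd by 0.95 ± 0.17, Ctsh by 0.81 ± 0.10 and Ctsz by 0.61 ± 0.15 (limma adjusted p at most 0.00125). For Ctsl the change was -0.31 ± 0.15 (limma adjusted p = 0.0661). It was called lower after rescaling to the total of whole reads and by limma-voom (-0.34 in both, adjusted p = 0.044 and 0.0343), and without mouse A4 of day 3 (-0.45). Some members were also lower in the uninjured region at day 42 than at day 3. The log2 change there was -0.58 ± 0.10 for Ctsc, -0.36 ± 0.07 for Ctsb, -0.36 ± 0.12 for Ctss and -0.34 ± 0.09 for Ctsh (limma adjusted p at most 0.0398). The other members were not called there. With single mice left out the Ctss change was -0.43 to -0.29, and its call was not always kept.

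In the uninjured region, 6 of 9 members changed over the 5 days (47.2% of all genes): Ctsc, Ctsd, Ctsb, Ctsf, Ctss and Ctsh (limma F test, adjusted p = 0.000459, 0.000494, 0.0015, 0.00986, 0.0112 and 0.0469). That count was 5 to 7 when single mice were left out. For Ctsl, Ctsk and Ctsz the adjusted p was 0.0746, 0.0844 and 0.376. At day 42 relative to day 21, 4 members were lower (10.1% of all genes) and 0 higher (10.4%). The log2 change was -0.44 ± 0.12 for Ctss, -0.41 ± 0.11 for Ctsd, -0.34 ± 0.07 for Ctsb and -0.34 ± 0.11 for Ctsf (limma adjusted p from 0.00109 to 0.0393). At an unadjusted p under 0.05 there were 6 members, and limma-voom called 4. The call of Ctss was lost without A10 of day 21 or B1 or B9 of day 42 (adjusted p up to 0.0602) and that of Ctsf without A3 or A4 of day 21 or B1, B3 or B9 of day 42 (limma adjusted p up to 0.13). The Ctsf call was also lost in a fit of the libraries of these days only (limma adjusted p = 0.0701), and all 4 were lost after quantile normalization. In the scar, the log2 changes of these 4 genes over the same step were -0.16 for Ctss, -0.53 for Ctsd, -0.37 for Ctsb and -0.32 for Ctsf. Day and label series cannot be told apart here either.

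In a ratio of a pair of genes within a library a single factor per library cancels, but quantile normalization, which moves genes by different amounts, can change it. The log2 ratio of Ctsk to Ctss in injured libraries averaged -4.37 ± 0.42, -3.57 ± 0.131, -1.99 ± 0.304, -1.65 ± 0.281 and -1.74 ± 0.155 at days 3, 7, 14, 21 and 42 (SD, n = 4 each). In uninjured libraries it averaged -2.63 ± 0.447, -2.14 ± 0.12, -1.77 ± 0.226, -2.02 ± 0.289 and -2.04 ± 0.374. The scar therefore held less Ctsk relative to Ctss in 4 of 4 mice at days 3 and 7, and more in 4 of 4 mice at day 21 and 3 of 4 at day 42. After quantile normalization it held less in 4 of 4 mice at days 3 and 7 and more in 1 of 4 at day 21 and 2 of 4 at day 42, with mean differences of -0.00 and -0.03 on these later days. Between injured libraries the ratio was 2.63 higher at day 42 than at day 3, with no overlap (two-sided exact permutation test of 4 against 4, adjusted p = 0.0286, the smallest it can give).

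For Ctsf to Ctsd, injured libraries averaged -6.72 ± 0.343 at day 3, -5.12 ± 0.431 at day 7 and -3.38 ± 0.0865 at day 42, against -3.56 ± 0.0911, -3.51 ± 0.051 and -3.67 ± 0.103 in uninjured libraries. The scar ratio was below the uninjured one in all mice at days 3 and 7 and, on the deposited scale, above it in 4 of 4 mice at day 42. After quantile normalization it was below in all mice on each of the 5 days, with a mean difference of -0.47 at day 42. Between injured libraries it was 3.34 higher at day 42 than at day 3 (exact permutation test, adjusted p = 0.0286). Ctsb was also set against Cst3, which encodes cystatin C, a secreted inhibitor of cysteine cathepsins. Cst3 averaged 146 ± 7.71 RPKM in injured and 442 ± 25 in uninjured libraries at day 3, and 623 ± 86.7 and 346 ± 42.2 RPKM at day 42 (SD, n = 4 each), so its order between the regions was reversed between these days. The log2 ratio of Ctsb to Cst3 in injured libraries was 1.09 ± 0.185, -0.25 ± 0.117, -2.17 ± 0.202, -2.54 ± 0.0728 and -2.81 ± 0.21 over the 5 days, against -2.04, -1.97, -2.09, -2.13 and -2.04 in uninjured libraries. It was higher in the scar in 4 of 4 mice at days 3 and 7 and lower in 4 of 4 at days 21 and 42, as it also was after quantile normalization. The change in the scar was -3.9 at day 42 relative to day 3 (exact permutation test, adjusted p = 0.0286).

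Over all 20 mice together, the mean difference between injured and uninjured libraries was -0.543 ± 0.993 for Ctsk to Ctss, higher in 8 of 20 mice, and -0.867 ± 1.39 for Ctsf to Ctsd, higher in 9 of 20 (mean ± SD, permutation test over mice by flipping signs, two-sided, adjusted p = 0.0375 and 0.0328). For Ctsb to Cst3 it was 0.718 ± 1.53, higher in 9 of 20 mice (adjusted p = 0.0507). These pooled means join days with opposite directions, and after quantile normalization they were -0.92, -1.57 and 0.38 (permutation test, adjusted p = 0.00117, 6e-05 and 0.302).

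**Figure D4:**
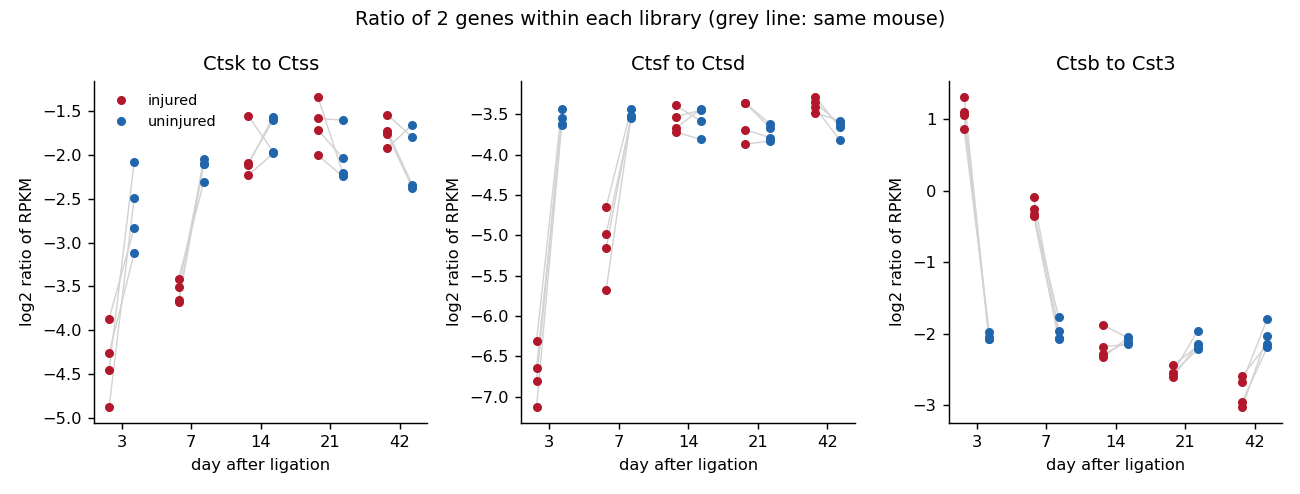
Log2 ratio of RPKM within each library for Ctsk to Ctss, Ctsf to Ctsd and Ctsb to Cst3 by day, injured libraries left of uninjured ones, with grey lines joining the libraries of 1 mouse. The Ctsb to Cst3 ratio of injured libraries lies between 0.87 and 1.32 at day 3 and between -3.03 and -2.59 at day 42, while uninjured libraries lie between -2.22 and -1.77 over the 5 days.

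The genes whose profiles were most like a member's were found from the root mean square difference of mean-centred log2 values over the 10 region-by-day groups. Ctsb was closest to Lgmn, the lysosomal asparaginyl endopeptidase (difference 0.154), and about as close to Adamts14, a metalloproteinase (0.155). Ctsd was closest to Psap, the precursor of the saposins (0.154), and Igf2r, the receptor that carries enzymes with mannose 6-phosphate to lysosomes (0.191). Psap averaged 599 in injured and 364 RPKM in uninjured libraries at day 7, and 215 and 372 RPKM at day 42, the same order as Ctsd on the deposited scale. Ctsl was closest to Hexa, a lysosomal glycosidase (0.117), and Casp1, the protease of the inflammasome (0.120), and Ctsk to Mmp23 (0.094), a metalloproteinase, and Mdk (0.132), which encodes the growth factor midkine. Mmp23 averaged 9.51 in injured and 3.46 RPKM in uninjured libraries at day 3 and 32.8 and 4.27 RPKM at day 7. Ctss was closest to Wisp1 (0.197), a secreted matricellular protein, and Glipr1 (0.291), and Ctsf to Pik3ip1 (0.197) and Tnxb (0.276), an extracellular matrix protein. Ctsz was closest to Arrb2 (0.109) and Pstpip1 (0.115), Ctsc to Has2 (0.078), a hyaluronan synthase, and Sec61b (0.126), and Ctsh to Gdf3 (0.071) and Lrp12 (0.111). Group means of Adamts14, Has2 and Gdf3 were at most 2.41, 4.08 and 2.75 RPKM, where the pseudocount of 1 flattens a profile. It also flattens parts of other profiles, such as the uninjured means of Pstpip1 and Mdk, at most 0.681 and 1.54 RPKM. Among the members themselves the closest pair was Ctsc and Ctsh (0.258), and Ctsf was the farthest from any other (0.905, to Ctsd).

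Other proteases of the lysosome were also mostly higher in the scar. The counts of these lists stand beside 40.5 to 44.1% of all genes called higher and 38.7 to 41% called lower by day on the deposited scale. Of 8 tested, 7, 8, 8, 7 and 7 were called higher at days 3, 7, 14, 21 and 42 and 0 lower by limma, with median log2 differences of 1.14, 1.29, 0.62, 0.56 and 0.61. Scpep1, a serine carboxypeptidase, averaged 40.5 ± 1.95 in injured and 9.22 ± 0.294 RPKM in uninjured libraries at day 7 and 36.6 ± 6.13 and 6.86 ± 0.872 RPKM at day 42. Ctsa, the carboxypeptidase cathepsin A, averaged 59.9 ± 8.21 and 32.2 ± 2.74 RPKM at day 7, and its difference was not called at days 21 and 42 (0.06 and 0.11, limma adjusted p = 0.566 and 0.279), but was 0.50 and 0.53 and called higher after rescaling to the total of whole reads. The direction of this list held under both other scalings.

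Genes listed as inhibitors of cathepsins were mostly higher in the scar, with a few lower. The list joins cystatins with serpins, and whether their products inhibit the 9 members was not tested. Cst3 was lower in the scar at day 3 (log2 difference -1.59) and not called at day 7 (0.04) on the deposited scale. At days 14, 21 and 42 it was higher there (0.46, 0.51 and 0.84). Of 8 tested, 5, 6, 5, 5 and 7 were higher in the scar and 2, 1, 1, 2 and 1 lower at days 3, 7, 14, 21 and 42, with medians of 0.49, 1.05, 0.57, 0.45 and 0.78. Of all genes, 40.5 to 44.1% were higher and 38.7 to 41% lower by day. After rescaling to the total of whole reads, 6, 7, 7, 6 and 7 inhibitors were higher and 2, 1, 1, 1 and 0 lower. Serpina3n averaged 31.4 ± 2.43 in injured and 17.7 ± 3.11 RPKM in uninjured libraries at day 3 and 78.3 ± 16.9 and 7.66 ± 4.66 RPKM at day 42. Serpinb1a averaged 69 ± 13.2 in injured and 4.15 ± 0.403 RPKM in uninjured libraries at day 7 and 6.86 ± 1.31 and 2.01 ± 0.211 RPKM at day 42. Serpinb6b was lower in the scar on all 5 days (log2 differences from -1.25 to -0.60, limma adjusted p at most 0.000219), and the day 42 call was lost under both other scalings (-0.18 rescaled, -0.19 quantile normalized). These serpins belong to families with close copies, so how reads were shared among copies could move their values.

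Lysosomal glycosidases, lipases and other hydrolases were higher for 23, 27, 24, 25 and 24 of 29 tested and lower for 4, 1, 2, 2 and 3 over the 5 days on the deposited scale, with medians of 0.63, 1.19, 0.75, 0.55 and 0.60. Smpd1, acid sphingomyelinase, was lower in the scar on each day, and at day 7 averaged 13.7 ± 2.03 RPKM in injured and 58.1 ± 7.6 RPKM in uninjured libraries. Lysosomal membrane proteins had 8, 12, 8, 9 and 9 of 15 higher and 4, 1, 2, 4 and 2 lower on the deposited scale. There, 8 of 15 at days 3 and 14 is not far from the share over all genes. These counts depend on the scaling. After quantile normalization 11, 14, 13, 13 and 12 were higher and 1, 0, 1, 1 and 1 lower. After rescaling to the total of whole reads 13, 14, 13, 13 and 14 were higher and 2, 0, 0, 0 and 1 lower. Laptm5 of blood cells averaged 37.5 ± 6.93 in injured and 6.1 ± 0.369 RPKM in uninjured libraries at day 7. Laptm4a averaged 149 ± 4.77 and 182 ± 14.3 RPKM on that day, a log2 difference of -0.29 on the deposited scale, -0.03 rescaled and 0.57 after quantile normalization.

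Subunits of the proton pump that acidifies lysosomes were divided, with a median that depends on the scaling. On the deposited scale, 8, 7, 5, 4 and 6 of 18 tested were higher in the scar and 8, 7, 10, 11 and 10 lower at days 3, 7, 14, 21 and 42. The counts of days 3 and 7 are near the shares over all genes, 44.1% and 43.6% higher and 39.6% and 38.7% lower. The medians of the list on that scale were 0.02, -0.02, -0.26, -0.32 and -0.19. After rescaling to the total of whole reads the medians were 0.51, 0.21, 0.10, 0.07 and 0.22, beside 0.47, 0.26, 0.36, 0.39 and 0.37 for all genes, and after quantile normalization they were 0.25, 0.24, 0.11, 0.06 and -0.08. Tcirg1, the form of the a subunit in osteoclasts and immune cells, averaged 28.4 ± 3.21 in injured and 3.28 ± 0.616 RPKM in uninjured libraries at day 3. Atp6v0d2, a subunit form of osteoclasts and some macrophages, averaged 6.66 ± 0.927 in injured and 0.0538 ± 0.0237 RPKM in uninjured libraries at day 7. Atp6v1d, which is widely expressed, averaged 27.7 ± 0.818 in injured and 81.7 ± 11.2 RPKM in uninjured libraries on that day.

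Sorting genes and the transcription factors of lysosome genes had 6, 9, 6, 6 and 6 of 13 higher and 5, 2, 4, 4 and 4 lower on the deposited scale, where 6 of 13 is near the share over all genes. Their median at day 14 was -0.08, and 0.29 rescaled. Tfe3 was higher in the scar on all 5 days (log2 difference 1.01 ± 0.08 at day 3 and 0.52 ± 0.08 at day 42) and Mitf lower (-1.62 ± 0.10 and -1.32 ± 0.10, limma adjusted p at most 4.08e-06 for both genes on these days). Class II antigen presentation genes, the pathway in which cathepsin S acts, were higher for 7 of 7 on each of the 5 days, with medians of 1.16, 2.22, 1.54, 1.10 and 1.70. Cd74, the invariant chain itself, averaged 114 ± 26.7, 205 ± 22.7, 228 ± 19.8, 226 ± 59.3 and 204 ± 34.8 RPKM in injured libraries over the 5 days, against 49.8 ± 17, 40.7 ± 5.9, 72.8 ± 16, 91.9 ± 22.5 and 55.5 ± 13.9 RPKM in uninjured ones. The Cd74 mean of the scar was thus nearly level at days 7, 14, 21 and 42, at 204 to 228 RPKM, while the Ctss mean was 564 at day 7 and 105 RPKM at day 42.

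**Figure D5:**
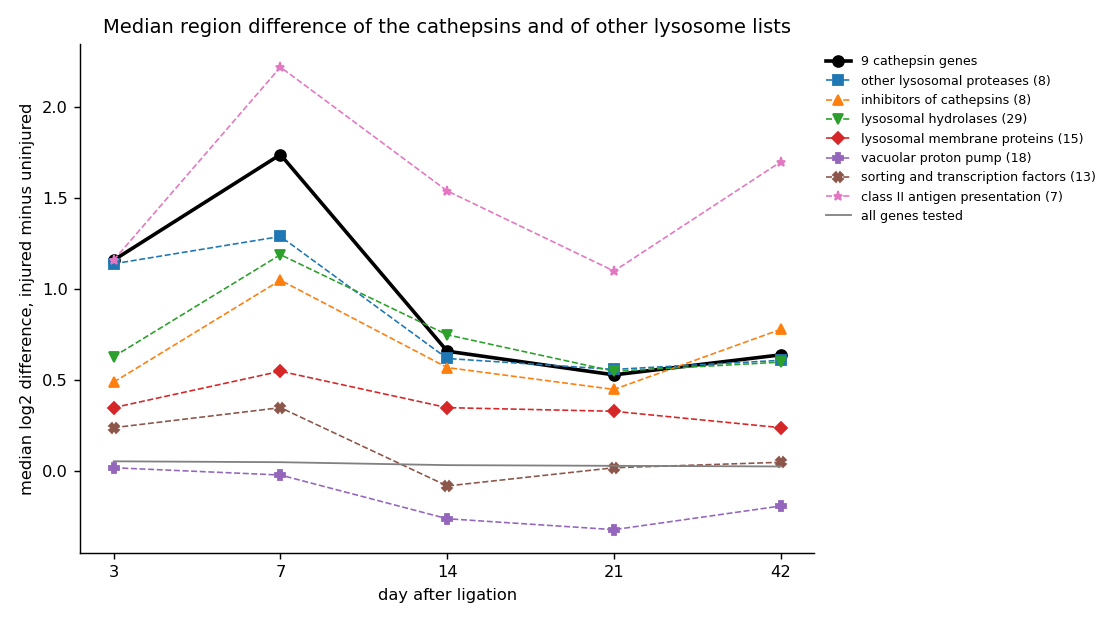
Median difference between the injured and uninjured regions on the log2(RPKM + 1) scale by day for the 9 cathepsin genes, 7 lists of related genes (number tested in brackets) and all genes tested, on the deposited scale. The cathepsin median is 1.74 at day 7 and 0.64 at day 42, and that of the proton pump is -0.02 at day 7 and -0.19 at day 42 (0.21 and 0.22 after rescaling to the total of whole reads).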

How the data were processed

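RNA was sequenced from 40 libraries of 20 mice. The authors deposited 1 table of RPKM for 11450 genes; STAR, edgeR and mm10 are named, without versions, per the submitters' processing notes, and how reads were counted, with which annotation and whether by strand, is not given in the sources used here.

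Whole reads were worked back from the RPKM steps (99.9% of values within 0.01 of a whole number). A filter of 1 RPKM in 4 or more libraries kept 11390 genes and 9 of 9 members, tested on log2(RPKM + 1), which understates changes of low genes. Tests were by limma 3.58.1 in R 4.3.3 (trend and robust options, statmod 1.5.0): regions in a model of the 40 libraries blocked by mouse, and days in 1 model per region. P values were Benjamini-Hochberg adjusted over all genes tested, with calls under 0.05. Per the series' design text both regions come from 1 heart, which pairs the libraries, and deviations of a mouse's libraries from their group means correlated at 0.148 to 0.54. The fits were tested on simulated data. Ratios were compared by permutation tests (scipy 1.17.1, 100000 resamples over mice, exact between days), adjusted over 3 ratios.

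Alternatives were a pseudocount of 0.1, no filter, quantile normalization, rescaling to the total of whole reads, no block or a random effect of mouse, only the libraries compared, each mouse left out, and, chosen after seeing the data, limma-voom on the whole reads, detection of Xist as a covariate and, for ratios and shares, quantile normalization.

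The members and gene lists were chosen with earlier results of these data known. All members were named, with the 2 genes of the most similar profile each, and from each list the 2 genes of the highest and the 1 of the lowest mean region difference, of which examples are printed. Upstream sequences are RefSeq on GRCm38.p6, and positions are from GENCODE M21.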

Additional observations from a re-analysis of the deposited data

Results flagged for a closer look

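The difference between the injured and uninjured regions changed over the 5 days for each member (limma F test over all genes, adjusted p = 4.85e-10 for Ctsb, 0.000102 for Ctsl, 8.13e-09 for Ctss, 7.23e-06 for Ctsk, 1.46e-12 for Ctsf, 0.000181 for Ctsz, 1.48e-05 for Ctsc, 6.42e-08 for Ctsh and 2.4e-07 for Ctsd). Since 74.3% of all genes passed the same test, this does not set the cathepsins apart.

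In 5 of 90 groups of 4 libraries, 1 library stood apart from the other 3 by Dixon's criterion, which chance meets in about 1 in 20 groups. Ctsl was at 128 RPKM in the injured library of mouse B1 at day 42 and at 142 to 143 in the others. Ctsf was at 12.6 RPKM in the injured library of mouse B9 at day 42 and at 15.1 to 15.6 in the others. Ctsb was at 100 RPKM in the uninjured library of mouse A8 at day 3 and at 109 to 110 in the others. In the uninjured library of mouse A4 at day 21, Ctsb was at 99.7 RPKM, with 107 to 109 in the others, and Ctsh at 9.37 RPKM, with 7.74 to 8.01 in the others.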

How the results depend on the processing

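A pseudocount of 0.1 and no filter changed none of 135 member results, and the mouse as a random effect or, for the regions, only the libraries of that day changed none of 45. Only the libraries of the days compared changed 4 of 90 comparisons between days, with 3 calls lost and 1 gained. Fitted with no replicate block, no call of a region difference changed (Ctsl at day 42 was 0.40, adjusted p = 0.00485, in that fit). Results turned with the scaling of libraries: Ctsd at day 3 was 0.98 after quantile normalization, 0.51 after rescaling to the total of whole reads and 0.50 by limma-voom, and quantile normalization gave 0.55, 0.44 and 0.16 for Ctsd at days 14, 21 and 42. Members called lower in the scar numbered 0 at day 14 under each of these 3 settings, 0 at day 21 under quantile normalization and 1 under the other 2, and 1 at day 42 under all 3. At day 42 that member was Ctsf under quantile normalization and Ctsd under the other 2. Members called higher at day 21 numbered 8 under quantile normalization and 7 under the other 2. The cause was not tested.

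With single mice left out, the pooled log2 ratio difference was -0.62 to -0.45 for Ctsk to Ctss, -0.93 to -0.73 for Ctsf to Ctsd and 0.58 to 0.81 for Ctsb to Cst3, with the adjusted p on either side of 0.05. Injured day 42 minus day 3 was 2.46 to 2.80, 3.20 to 3.48 and -3.98 to -3.83, where 3 against 4 libraries cannot pass 0.05. With Xist detection as a covariate, 1 of 90 member results changed. Xist reached 1 RPKM in a library of 1, 2, 3, 2 and 2 of the 4 mice at days 3, 7, 14, 21 and 42. Its detection was thus spread unevenly over the days compared. The planned edgeR test was not run, because the deposited values are RPKM, and limma-voom took its place. Depth limits Ctsf and Ctsk most, at as few as 111 and 83 reads in a library.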
